A study of Homo sapiens with 12 samples.

Results

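The enzymes described here belong to families that write or remove methyl and acetyl groups on histones. Writer and eraser are used by family, and several members act mainly on targets other than histones, as described with them below. Members were taken by symbol: KDM, KMT, SETD, NSD, PRMT, KAT, HDAC and SIRT followed by a number, together with EP300 and CREBBP, and without KDM3A. The rule used names and no measured value. It found 71 of the 16384 gene symbols in the count tables, 37 writers and 34 erasers, and all 71 passed the filter on low counts that left 12645 genes for testing.

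Polyadenylated RNA was sequenced from MDA-MB-231 cells, a long-established line from a triple-negative breast cancer, labelled wild type in every group. The 12 libraries fall into 4 groups of 3: DMSO (the vehicle), CAR (10 µmol/L, cardamonin by the series title, a plant chalcone), JQ1 (25 µmol/L, a BET bromodomain inhibitor) and Combination (both agents at those doses). The labels give no treatment time and do not say whether the replicates were separate cultures, so the p-values reflect only how far these libraries differ from one another, and that spread may be technical. RNA came from whole cultures, in which fewer cells of a kind and less RNA per cell cannot be told apart.

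Histone lysine and arginine residues are methylated with S-adenosylmethionine as donor and acetylated with acetyl-CoA. Methyl groups are removed by flavin-dependent or α-ketoglutarate-dependent demethylases, and acetyl groups by zinc-dependent histone deacetylases (HDACs) or NAD-dependent sirtuins. BET proteins, the targets of JQ1, bind acetylated lysines through their bromodomains and recruit the transcription machinery, so that these targets are readers of acetylation. Whether JQ1 at the dose used also acted directly on any enzyme described here was not tested.

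Levels are given as CPM, the depth-scaled count unit, here on TMM-scaled library totals. Changes are given as log2 fold change ± SE from edgeR's quasi-likelihood fit. Genes with an adjusted p under 0.05 (Benjamini-Hochberg, over all 12645 genes tested) were called, and "rose" and "fell" are used for called genes. The libraries held 17449715 to 19754456 counts each, and 3 counts, the floor used here, corresponded to 0.147 to 0.177 CPM. Markers fixed for a mesenchymal triple-negative line were present (7 of 7). ESR1, PGR and CDH1 were at or below 0.641 CPM in every library, while ERBB2 (96.7 to 154 CPM), KRT8 (438 to 740 CPM) and KRT18 (207 to 454 CPM), listed as absent or low, were detected, and the last of that list, EPCAM, reached at most 16.5 CPM. Endothelial markers summed to 6.34 to 8.24 CPM, and the 3 leukocyte markers in the tables to 0.154 to 1.004 CPM.

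A pair of libraries stood apart. DMSO replicate 3 differed from DMSO replicates 1 and 2 by a chi-square of 10.6 and 12.6 per degree of freedom over genes, against 1.46 to 2.31 in the other 10 replicate pairs. Its deviation from its group followed exon length, with a Spearman correlation across genes of -0.73, against -0.28 to 0.26 in the 9 libraries of the other groups. Genes are not independent replicates. The enzymes' mRNAs were long, with a median exon length of 5685 bases, against 3751 bases over all genes tested. KMT2A was lowest in that library, 0.76 below the mean of the other DMSO libraries on the log2 scale (a deviation of -0.76), followed by KMT2C (-0.60), HDAC4 (-0.55), EP300 (-0.50) and KMT2D (-0.50). Combination replicate 1 held 145 CPM of 12 hepatocyte genes, led by ALB with 1429 counts, against 1.39 to 3.52 CPM in the other 11 libraries. Leaving it out lost and gained few calls among the enzymes, and the counts without it are given with each comparison.

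**Figure D1:**
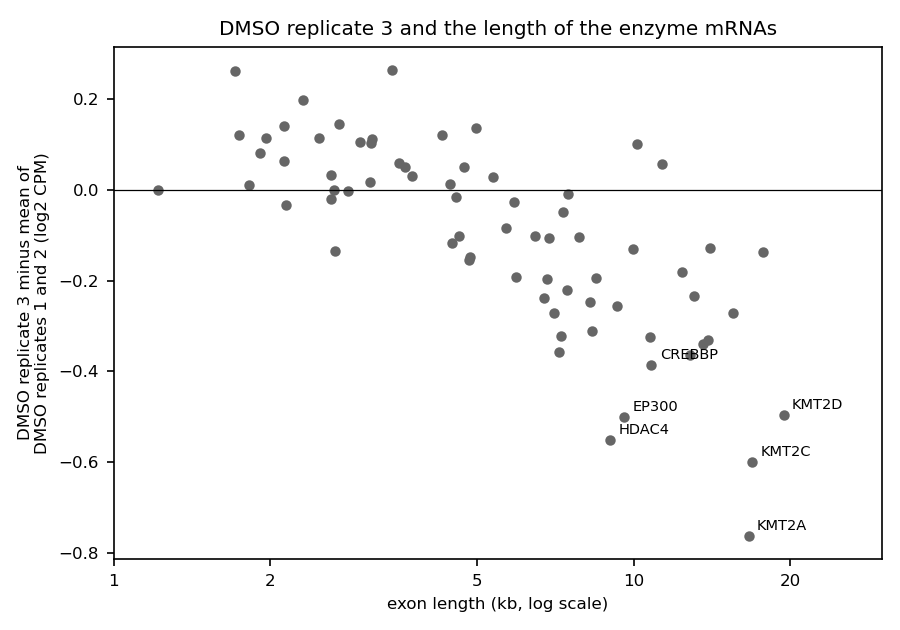
Deviation of DMSO replicate 3 from the mean of DMSO replicates 1 and 2 (log2 CPM, vertical axis) against exon length (kb, log scale) for the 71 enzymes, 1 point per gene. The lowest points, KMT2A at -0.76 and KMT2C at -0.60, are long mRNAs. Not all long mRNAs lie low, as NSD2 is at -0.14 and HDAC2 at 0.10.

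The enzymes moved more with JQ1 than with CAR. With CAR, 17 rose and 16 fell. Over all genes tested 27.3% rose and 30.1% fell with CAR, and the members' shares, 23.9% and 22.5%, lay somewhat below both. A change of 2-fold or more with CAR was seen in no enzyme, and in 0.925% (higher) and 3.45% (lower) of all genes. With JQ1, 37 rose and 21 fell, or 52.1% and 29.6%, against 41.5% and 42.2% of all genes. By 2-fold or more 8 rose and 6 fell, or 11.3% and 8.45%, against 11.7% and 18.2% of all genes, so that the share of large rises was that of the background. With both agents 39 rose and 19 fell, or 54.9% and 26.8%, against 42.6% and 42.8%. The median log2 fold change of the 71 was -0.01 with CAR, 0.20 with JQ1 and 0.29 with both, against -0.02, -0.01 and 0.00 over all genes. Scaling by total counts moved the all-gene medians to -0.08, -0.13 and -0.21, and the split of the members to 12 higher and 23 lower with CAR, 33 and 27 with JQ1, and 31 and 29 with both. Without DMSO replicate 3 the split was 18 and 25 with CAR, 38 and 24 with JQ1, and 40 and 21 with both. Without Combination replicate 1 it was 40 and 19 with both.

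Writers and erasers differed in their counts. With JQ1, 23 of the 34 erasers rose and 9 fell, or 67.6% and 26.5%, with a median of 0.59. Of the 37 writers 14 rose and 12 fell, or 37.8% and 32.4%, with a median of 0.07. Over all genes 41.5% rose and 42.2% fell with JQ1, so that the writers' share of rises was near that of all genes. With both agents 24 erasers rose and 6 fell, or 70.6% and 17.6%. Of the writers 15 rose and 13 fell, or 40.5% and 35.1%, against 42.6% and 42.8% of all genes. With CAR the counts leaned the other way. Of the erasers 4 rose and 12 fell, or 12% and 35%, and of the writers 13 rose and 4 fell, or 35% and 11%. Over all genes 27.3% rose and 30.1% fell with CAR. The CAR split of all members moved to 18 and 25 without DMSO replicate 3, and to 12 and 23 with total-count scaling. Counts by role are given for the main fit only, so whether this lean holds in those settings is not shown. The comparisons with DMSO use the same DMSO libraries and are set side by side only, and the difference between the roles was not tested. The shares of all genes given here are also those to read the counts by class below against.

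**Figure D2:**
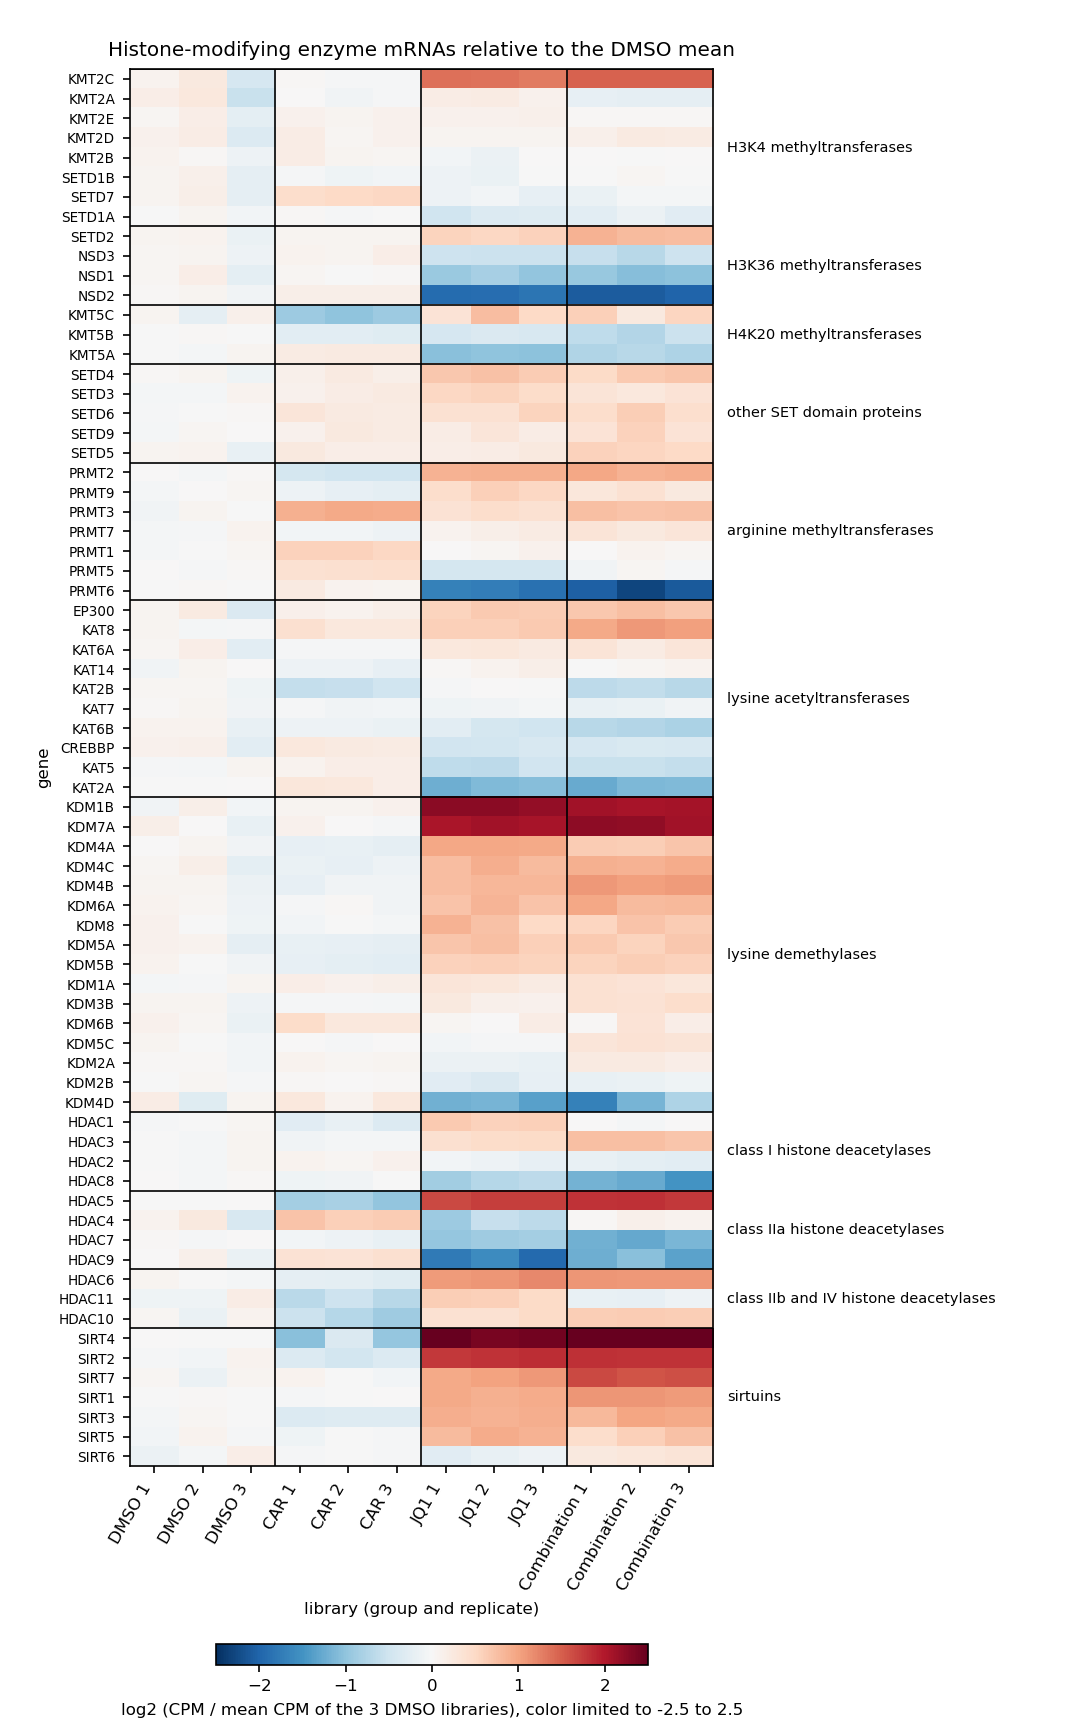
Level of each of the 71 enzyme mRNAs in each of the 12 libraries, as log2 of CPM over the mean of the 3 DMSO libraries (color, capped at both ends of the scale), grouped by class. Of the 7 sirtuins, 6 are red in all JQ1 and Combination libraries, SIRT6 is not with JQ1, and NSD2, PRMT6 and HDAC9 are among the darkest blue rows.

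Between Combination and JQ1, 21 enzymes were higher and 14 lower with both agents, or 29.6% and 19.7%, against 26% and 25.9% of all genes. Without Combination replicate 1 the counts were 18 and 13, and with total-count scaling 15 and 22. Between Combination and CAR, 40 were higher and 22 lower, or 56.3% and 31%, against 42.4% and 43% of all genes; the counts were 41 and 22 without Combination replicate 1. The interaction asks whether the change with both agents departed from the sum of the single changes on the log2 scale. It was positive in 19 enzymes and negative in 11, or 26.8% and 15.5%, against 20.1% and 18.2% of all genes. Without DMSO replicate 3 it was positive in 29 and negative in 14, and without Combination replicate 1 in 17 and 11.

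**Figure D3:**
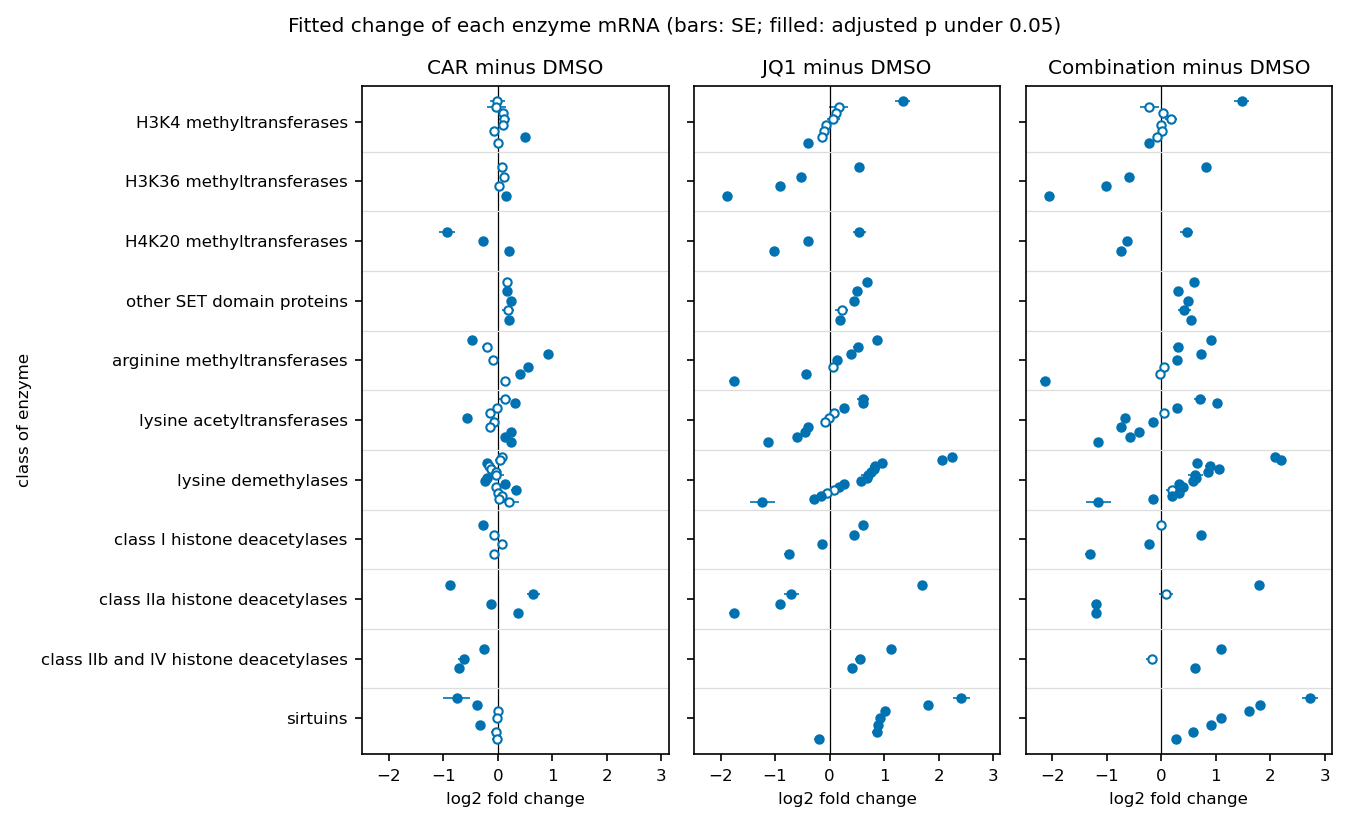
Log2 fold change against DMSO (points, with bars of 1 SE) of each enzyme with CAR, JQ1 and both, by class. Filled points passed an adjusted p of 0.05; most of the 34 erasers (demethylases, deacetylases and sirtuins) lie right of 0 with JQ1 and with both.

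Most of the 8 members grouped here as H3K4 methyltransferases were not called in the comparisons with DMSO. Methylation of H3K4 marks promoters and enhancers of active genes, and whether each member of the group carries it out was not tested. Of the 8, 1 rose and none fell with CAR, and 1 rose and 1 fell both with JQ1 and with both agents. KMT2C, which monomethylates enhancers with its paralog KMT2D, was the member that rose. It stood at 156, 173 and 108 CPM in DMSO, 148, 142 and 142 with CAR, 380, 371 and 357 with JQ1 and 403, 407 and 403 with both agents. Every JQ1 and Combination library lay above every DMSO and CAR library, a change of 1.34 ± 0.14 with JQ1 (adjusted p = 8.94e-06, 2.54-fold). The estimate was 1.17 without DMSO replicate 3. KMT2D stayed between 129 and 192 CPM in all 12 libraries, with a difference of 0.07 ± 0.11 with JQ1 that did not pass the test. Its DMSO mean includes the low DMSO replicate 3, with a deviation of -0.50.

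KMT2A, the leukemia-associated founder of the family, was at 307, 331 and 188 CPM in DMSO, 278, 260 and 270 with CAR, 313, 319 and 297 with JQ1 and 239, 236 and 236 with both agents. The DMSO libraries span all the other groups because replicate 3 is low, and no comparison was called in the fit to all libraries. Without that library it fell by 0.24 with CAR (an estimate of -0.24, adjusted p = 8.95e-09) and by 0.43 with both agents (-0.43, adjusted p = 1.23e-16), while JQ1 alone gave -0.04 (adjusted p = 0.232). The Combination libraries all lay below the JQ1 libraries, a difference of -0.39 ± 0.18 that missed the threshold with the spread of all groups (adjusted p = 0.0999) and passed when the JQ1 and Combination libraries were fitted by themselves (adjusted p = 1.36e-14). SETD7, which monomethylates H3K4 and many other proteins, rose with CAR from 146, 155 and 120 CPM to 191, 198 and 201 CPM (0.49 ± 0.07, adjusted p = 2.53e-05), with no overlap. In Combination it was back at 125, 135 and 135 CPM, within the range of the DMSO libraries, and its interaction was -0.44 ± 0.10. SETD1A, the catalytic subunit of a promoter-bound COMPASS complex, fell with JQ1 (-0.39 ± 0.06) and with both (-0.23 ± 0.05). KMT2B, KMT2E and SETD1B differed by at most 0.12 on the log2 scale in the 3 comparisons with DMSO, and none of these differences was called. Each was lower in DMSO replicate 3 than in the other DMSO libraries, with deviations of -0.19, -0.36 and -0.31 in that order. That library pulls their DMSO means down, so that the small differences do not show an absence of change.

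The H3K36 methyltransferases divided by the state they write. NSD1, NSD2 and NSD3, which place the mono- and dimethyl marks, all fell with JQ1 and with both agents. SETD2, which adds the trimethyl mark behind elongating polymerase, rose in both comparisons. NSD2, the enzyme overexpressed through a translocation in multiple myeloma, stood at 535, 547 and 492 CPM in DMSO, 583, 579 and 584 with CAR, 137, 141 and 148 with JQ1 and 124, 124 and 131 with both agents. The JQ1 and Combination libraries lay far below all others, and JQ1 lowered NSD2 3.69-fold (-1.88 ± 0.04, adjusted p = 4.12e-20). In DMSO it was the most counted member on the CPM scale, while per kb of exon NSD2 had 29.7 CPM, below PRMT1 with 122 CPM per kb. The decrease was larger with both agents (-2.05 ± 0.04). The Combination libraries also lay below the JQ1 libraries (-0.17 ± 0.04, and -0.26 with total-count scaling), and its interaction was -0.32 ± 0.06.

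NSD1 went from 102, 111 and 84.0 CPM in DMSO to 52.4, 55.8 and 50.2 in JQ1 (-0.91 ± 0.08, adjusted p = 7.77e-09, 1.87-fold lower) and 51.7, 47.4 and 48.5 in Combination; both groups lay below DMSO and overlapped each other. NSD3, often amplified in breast cancer, fell by less (-0.53 ± 0.05 with JQ1, -0.59 ± 0.05 with both). SETD2 rose from 127, 130 and 109 CPM in DMSO to 179, 175 and 181 in JQ1 and to 224, 212 and 208 in Combination. All 3 groups were separate from each other, with changes of 0.55 ± 0.05 with JQ1 and 0.82 ± 0.05 with both, and 0.27 ± 0.05 between them.

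The promoters of NSD2, KDM1B and SIRT6 are shown because they were the 3 of the 65 member promoters in RefSeq (GRCh38.p14, 250 bases before to 50 after the start) that held an E2F motif, spelled TTTCCCGC or TTTGGCGC on either strand. The motif was in 4.62% of member promoters and 2.27% of 35116 RefSeq promoters. For each member the first entry listed was used, while the background counts every entry, here and for the other motifs. Some windows lie away from the gene start in GENCODE, such as that of HDAC9 (chr7:18495499-18495798, against a start at 18086949). Capitals mark the motif as it reads on the strand of the gene, and no other motif searched is marked. NSD2 lies at chr4:1871143-1871442 on the plus strand, KDM1B at chr6:18155172-18155471 on the plus strand with 2 matches, and SIRT6 at chr19:4182514-4182813 on the minus strand.
NSD2: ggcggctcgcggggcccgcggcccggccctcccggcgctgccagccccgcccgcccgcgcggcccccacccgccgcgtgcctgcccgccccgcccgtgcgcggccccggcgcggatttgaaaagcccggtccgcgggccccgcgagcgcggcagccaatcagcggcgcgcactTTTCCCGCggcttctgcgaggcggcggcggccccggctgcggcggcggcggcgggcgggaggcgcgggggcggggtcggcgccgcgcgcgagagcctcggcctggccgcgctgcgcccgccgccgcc
KDM1B: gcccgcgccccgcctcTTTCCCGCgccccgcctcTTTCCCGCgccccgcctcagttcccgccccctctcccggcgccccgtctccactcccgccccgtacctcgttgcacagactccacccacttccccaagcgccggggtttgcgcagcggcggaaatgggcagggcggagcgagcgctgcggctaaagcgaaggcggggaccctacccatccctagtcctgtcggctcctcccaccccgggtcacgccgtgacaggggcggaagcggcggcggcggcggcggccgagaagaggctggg
SIRT6: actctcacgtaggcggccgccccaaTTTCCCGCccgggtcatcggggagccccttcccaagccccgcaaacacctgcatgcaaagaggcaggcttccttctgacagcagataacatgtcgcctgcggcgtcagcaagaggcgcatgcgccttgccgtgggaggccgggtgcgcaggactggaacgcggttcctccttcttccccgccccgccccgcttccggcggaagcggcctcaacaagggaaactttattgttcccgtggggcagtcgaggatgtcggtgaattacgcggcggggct
With JQ1 these genes changed by -1.88, 2.24 and -0.20 in that order, so that the match did not go with 1 direction. HDAC5, KAT6A, KAT8, NSD3, SETD1B and SIRT7 had no entry. Other motifs gave like descriptions: the CCAAT box was in 32.3% of member promoters and 34.6% of all, the E-box CACGTG in 13.8% and 7.26%, the cell cycle homology region TTTGAA in 10.8% and 15.2%, and the antioxidant response element TGACNNNGC in 7.69% and 13.3%. Member promoters were rich in G and C, with a median of 66.3% against 58.7%. The letters are a description of these windows, not of binding.

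All 3 H4K20 methyltransferases were called in each comparison with DMSO, but not in 1 direction. KMT5A, which places the monomethyl mark in G2 and mitosis, stood at 76.8, 74.8 and 81.9 CPM in DMSO and 37.7, 38.9 and 38.1 in JQ1. Both groups were tight and far apart (-1.03 ± 0.05, adjusted p = 6.73e-15, 2.04-fold lower). Combination, at 46.4, 48.1 and 45.8 CPM, lay between them, and CAR alone gave a small increase (0.21 ± 0.04). KMT5B, which extends the mark to di- and trimethylation, fell in all 3 comparisons, by 0.27 with CAR (-0.27 ± 0.05), 0.40 with JQ1 (-0.40 ± 0.05) and 0.63 with both (-0.63 ± 0.05). Its paralog KMT5C was low, at 6.71, 5.42 and 6.99 CPM in DMSO, 3.41, 3.19 and 3.38 with CAR, 8.11, 10.9 and 8.97 with JQ1 and 9.63, 7.56 and 9.31 with both agents. CAR lowered KMT5C 1.92-fold (-0.94 ± 0.15, adjusted p = 1.44e-05), while with JQ1 present the libraries with CAR overlapped those without it. The interaction was 0.86 ± 0.19 (adjusted p = 0.00127). With total-count scaling the rise of KMT5C with both agents, 0.47 ± 0.13, became 0.26 and was not called (adjusted p = 0.0652).

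The remaining SET domain proteins, SETD3, SETD4, SETD5, SETD6 and SETD9, mostly methylate targets other than histones or have no settled substrate. With CAR 3 of 5 rose, with JQ1 4 and with both all 5, and none fell in these comparisons. SETD4 rose most with JQ1 (0.69 ± 0.07), from 15.7, 16.2 and 14.3 CPM to 24.6, 25.7 and 23.8 CPM. SETD3, the actin histidine methyltransferase, was higher with JQ1 (0.51 ± 0.05) than with both agents (0.31 ± 0.05), with a negative interaction (-0.38 ± 0.07). With total-count scaling SETD3 and SETD9 were no longer called with both agents (0.10 and 0.22). SETD5 with JQ1 was 0.20 ± 0.06; it was 0.12 without DMSO replicate 3 and 0.08 with total-count scaling (adjusted p = 0.171). SETD6, which methylates the NF-kB subunit RELA, rose by 0.45 ± 0.07 with JQ1, and 29.9% of its exon bases overlap CNOT1 on the other strand, whose reads cannot be told apart where strand was not used in counting.

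Of the 7 arginine methyltransferases 3 rose and 1 fell with CAR, 4 rose and 2 fell with JQ1, and 4 rose and 1 fell with both. The JQ1 count includes PRMT7 (0.14 ± 0.05), whose call was lost in DESeq2 (adjusted p = 0.0501), with total-count (0.02) and upper-quartile scaling (0.08), and without DMSO replicate 1 (0.12), DMSO replicate 2 (0.12) or JQ1 replicate 3 (0.12). PRMT1, which makes most asymmetric dimethylarginine in cells, stood at 225, 230 and 241 CPM in DMSO, 344, 347 and 334 with CAR, 235, 239 and 251 with JQ1 and 234, 246 and 240 with both agents. The CAR libraries lay above all the others, and the other 3 groups overlapped. CAR raised PRMT1 1.47-fold (0.56 ± 0.04, adjusted p = 9.94e-11), the Combination libraries differed from DMSO by 0.05 ± 0.04 (adjusted p = 0.258), and the interaction was -0.57 ± 0.05 (adjusted p = 8.44e-08). PRMT3, a cytosolic enzyme that methylates ribosomal protein RPS2, was at 37.8, 42.2 and 39.9 CPM in DMSO, 73.8, 76.9 and 75.7 with CAR, 51.3, 53.9 and 51.7 with JQ1 and 67.0, 65.9 and 66.6 with both agents. No group overlapped another. The rise with CAR was the largest of any enzyme described here, 1.89-fold (0.92 ± 0.05, adjusted p = 1.31e-12), and the interaction was -0.57 ± 0.07.

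PRMT5, the main symmetric dimethyltransferase, moved in opposite directions with the agents: 121, 119 and 123 CPM in DMSO, 159, 161 and 163 with CAR, 89.2, 89.3 and 89.6 with JQ1 and 114, 125 and 118 with both agents. Both single changes were called (0.41 ± 0.04 with CAR, -0.44 ± 0.04 with JQ1), while with both agents the libraries overlapped the DMSO range (-0.03 ± 0.04) and the interaction was 0.01 ± 0.06 (adjusted p = 0.929). PRMT5-AS1 overlaps 34.8% of the exon bases of PRMT5. PRMT2, a weakly active member and nuclear receptor partner, showed the reverse: 100, 97.1 and 102 CPM in DMSO, 73.7, 70.3 and 70.7 with CAR, 182, 185 and 184 with JQ1 and 195, 183 and 187 with both agents. CAR lowered PRMT2 1.40-fold (-0.48 ± 0.04, adjusted p = 2.83e-09) and JQ1 raised it (0.88 ± 0.04), and the interaction was 0.52 ± 0.06.

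PRMT6, a nuclear enzyme that methylates H3 and counteracts KMT2 binding, was among those that fell most. It stood at 17.1, 17.6 and 17.1 CPM in DMSO, 20.2, 18.3 and 18.2 with CAR, 5.34, 5.25 and 4.72 with JQ1 and 4.19, 3.55 and 4.04 with both agents. JQ1 lowered it 3.38-fold (-1.76 ± 0.09, adjusted p = 4.05e-14) and both agents 4.40-fold (-2.14 ± 0.10, adjusted p = 3.54e-15), without overlap. The step from JQ1 to Combination was -0.38 ± 0.12 (adjusted p = 0.0114), and it was not called without Combination replicate 2 (-0.31, adjusted p = 0.0726). The interaction was -0.51 ± 0.14 (adjusted p = 0.00633). PRMT9, which methylates a splicing factor, rose with JQ1 (0.52 ± 0.08) and with both (0.30 ± 0.08, and 0.09 with total-count scaling, where it was not called). PRMT7, the monomethylating member, was at 34.5, 34.7 and 37.7 CPM in DMSO and 44.3, 42.5 and 44.0 in Combination (0.29 ± 0.05, and 0.08 with total-count scaling, where it was not called).

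Of the 10 lysine acetyltransferases 4 rose and 1 fell with CAR, 3 rose and 4 fell with JQ1, and 3 rose and 6 fell with both. The CAR count includes KAT5 (0.14 ± 0.05), whose call was lost without DMSO replicate 1 (0.12), DMSO replicate 2 (0.11), CAR replicate 2 (0.12) or CAR replicate 3 (0.13). That call was also lost with total-count (0.07) and upper-quartile scaling (0.10). The paralogs EP300 and CREBBP, which acetylate H3K27 at enhancers, moved apart with JQ1. EP300 stood at 120, 132 and 89.0 CPM in DMSO, 125, 122 and 127 with CAR, 167, 179 and 177 with JQ1 and 182, 192 and 183 with both agents. CREBBP stood at 137, 139 and 105 CPM in DMSO, 152, 148 and 147 with CAR, 90.9, 92.7 and 96.3 with JQ1 and 94.6, 97.3 and 96.6 with both agents. For each paralog the JQ1 and Combination libraries lay outside the range of the DMSO and CAR libraries, above it for EP300 (0.61 ± 0.11 with JQ1) and below it for CREBBP (-0.45 ± 0.08). DMSO replicate 3 was the lowest DMSO library for both, and without it the changes with JQ1 were 0.47 and -0.56. With CAR, CREBBP was 0.23 ± 0.08 higher, which became 0.12 without DMSO replicate 3 and 0.17 with total-count scaling (adjusted p = 0.0551).

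KAT2A and KAT2B, the GCN5 and PCAF paralogs of the SAGA and ATAC coactivators, did not respond alike. KAT2A was at 75.4, 75.2 and 76.2 CPM in DMSO, 91.5, 90.4 and 85.0 with CAR, 32.3, 35.1 and 35.9 with JQ1 and 31.5, 34.7 and 35.3 with both agents. It fell 2.20-fold with JQ1 (-1.13 ± 0.05, adjusted p = 9.96e-15), and JQ1 and Combination libraries overlapped. KAT2A rose with CAR alone (0.24 ± 0.05, adjusted p = 0.000269), and its interaction was -0.26 ± 0.08 (adjusted p = 0.00948). KAT2B was at 38.6, 38.3 and 34.6 CPM in DMSO, 24.5, 24.8 and 26.4 with CAR, 36.4, 37.6 and 37.0 with JQ1 and 23.5, 24.2 and 23.0 with both agents. Both groups given CAR lay below both groups without it, by 0.56 without JQ1 (-0.56 ± 0.06, adjusted p = 5.01e-08) and 0.65 with JQ1 (-0.65 ± 0.06, adjusted p = 1.08e-08). The change of KAT2B with JQ1 alone was -0.01 ± 0.06 and was not called, except with total-count scaling (-0.12, adjusted p = 0.0401).

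KAT8, which acetylates H4K16 as part of the MSL and NSL complexes, rose in each comparison with DMSO. Its levels were 17.4, 16.0 and 16.3 CPM in DMSO, 21.8, 19.99 and 19.9 with CAR, 25.0, 25.1 and 26.0 with JQ1 and 32.02, 35.4 and 33.9 with both agents, and no group overlapped another. The changes were 0.31 ± 0.07, 0.61 ± 0.07 and 1.03 ± 0.06, with an interaction of 0.10 ± 0.09 that was not called. KAT5, the TIP60 acetyltransferase, fell with JQ1 (-0.59 ± 0.05), and 32.2% of its exon bases overlap RNASEH2C on the other strand. KAT6B of the MOZ and MORF complexes fell with JQ1 (-0.39 ± 0.07) and further with both (-0.73 ± 0.08, and -0.34 ± 0.08 between the groups, adjusted p = 0.00108), while its paralog KAT6A was 0.26 ± 0.07 higher with JQ1. That difference was 0.15 without DMSO replicate 3, and with total-count scaling KAT6A was not called (0.14, adjusted p = 0.0797). KAT7 of the HBO1 complexes was lower with both agents (-0.15 ± 0.05, and -0.35 with total-count scaling) and not called with either alone, and KAT14 of ATAC was not called against DMSO in any group. KAT14 shares exons on its own strand with PET117, whose reads may be split or dropped.

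Among the 16 demethylases 11 rose and 3 fell with JQ1, with a median of 0.63, and 13 rose and 2 fell with both agents. The JQ1 count includes KDM3B (0.16 ± 0.05), which was 0.11 without DMSO replicate 3 and was not called with total-count scaling (0.05, adjusted p = 0.390). With CAR 2 rose and 3 fell. Of these, KDM1A (0.13 ± 0.04) was not called without DMSO replicate 1 (0.11), nor with total-count (0.07) or upper-quartile scaling (0.10). The KDM5A call (-0.21 ± 0.07) was lost without DMSO replicate 1 (-0.14), DMSO replicate 2 (-0.16), CAR replicate 2 (-0.20) or CAR replicate 3 (-0.20). KDM1B, a flavin-dependent H3K4 demethylase active in gene bodies, stood at 35.6, 42.4 and 36.1 CPM in DMSO, 39.8, 39.9 and 40.8 with CAR, 181, 181 and 175 with JQ1 and 164, 158 and 160 with both agents. The JQ1 and Combination libraries lay far above all others, a 4.72-fold rise with JQ1 (2.24 ± 0.05, adjusted p = 4.51e-20). Combination was slightly below JQ1 (-0.16 ± 0.05, and -0.24 with total-count scaling). Its homolog KDM1A, the LSD1 subunit of CoREST, moved far less (0.27 ± 0.04 with JQ1, and 0.15 with total-count scaling), from 95.3, 96.6 and 103 CPM to 121, 120 and 114 CPM. Per kb of exon KDM1A had 31.4 CPM and KDM1B 8.26 CPM in DMSO, and 37.8 and 38.9 CPM in JQ1.

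KDM7A, a PHD-finger enzyme that removes H3K9 and H3K27 methylation, was at 13.1, 11.96 and 10.4 CPM in DMSO, 12.8, 11.9 and 11.6 with CAR, 48.8, 50.5 and 49.3 with JQ1 and 55.9, 54.9 and 50.9 with both agents. The rise was 4.18-fold with JQ1 (2.06 ± 0.07, adjusted p = 4.03e-17) and 4.56-fold with both (2.19 ± 0.07, adjusted p = 1.11e-17), and the difference between these groups was not called (0.12 ± 0.06). Smaller rises were shared within families. KDM4A, KDM4B and KDM4C, which act on H3K9 and H3K36, rose with JQ1 by 0.96 ± 0.04, 0.81 ± 0.06 and 0.83 ± 0.09. KDM5A and KDM5B, which remove H3K4 methylation, rose by 0.69 ± 0.07 and 0.58 ± 0.04, and KDM6A, which removes H3K27 methylation, by 0.76 ± 0.07.

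Other members of the same families did not follow. KDM4D, with 32 to 48 counts per DMSO library, fell (-1.23 ± 0.23 with JQ1), from 2.37, 1.70 and 2.20 CPM to 0.907, 0.939 and 0.815 CPM. KDM6B, the inducible H3K27 demethylase, was not called with JQ1 (0.08 ± 0.09) and rose with CAR (0.33 ± 0.09), from 13.7, 13.1 and 11.2 CPM to 17.3, 15.2 and 15.3 CPM. KDM5C did not differ with JQ1 in the test (-0.04 ± 0.04), though it was called lower with total-count scaling (-0.16) and upper-quartile scaling (-0.10), and it was higher with both (0.33 ± 0.04, 0.12 with total-count scaling). Its interaction was 0.37 ± 0.06.

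KDM2A, which binds CpG islands and removes H3K36 dimethylation, was at 312, 314 and 291 CPM in DMSO, 275, 274 and 269 in JQ1 and 357, 356 and 343 in Combination. JQ1 libraries lay below DMSO (-0.16 ± 0.04, and -0.28 with total-count scaling) and Combination libraries above it (0.20 ± 0.04). The latter turned to -0.00317 with total-count scaling and was not called there. KDM2B, its paralog in a Polycomb complex, was lower with JQ1 (-0.29 ± 0.05). KDM3B, an H3K9 demethylase, was 0.39 ± 0.05 higher with both (0.18 with total-count scaling), and KDM8 rose by 0.71 ± 0.13 with JQ1 from a DMSO mean of 3.11 CPM, with 10.7% of its exon bases under an antisense transcript.

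The class I deacetylases, of which HDAC1, HDAC2 and HDAC3 are catalytic subunits of nuclear corepressor complexes, did not move as a class: with JQ1 2 rose and 2 fell, and with CAR 1 fell. HDAC1 stood at 119, 122 and 126 CPM in DMSO, 101, 108 and 96.0 with CAR, 191, 183 and 186 with JQ1 and 124, 119 and 123 with both agents. JQ1 libraries were above all others, and Combination libraries overlapped the DMSO range. HDAC1 rose with JQ1 (0.61 ± 0.04) and was -0.00 ± 0.04 from DMSO with both, so that the Combination was 1.53-fold below JQ1 (-0.62 ± 0.04, adjusted p = 1.49e-10). CAR alone lowered HDAC1 by less (-0.27 ± 0.04), and the interaction was -0.35 ± 0.06 (adjusted p = 0.000132).

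HDAC3, the NCoR and SMRT subunit, went the other way. It was at 114, 111 and 121 CPM in DMSO, 109, 111 and 111 with CAR, 152, 158 and 160 with JQ1 and 193, 195 and 188 with both agents. The rise was 0.44 ± 0.04 with JQ1 and 0.73 ± 0.04 with both, with an interaction of 0.36 ± 0.06 (adjusted p = 4.97e-05). HDAC8, which deacetylates the cohesin subunit SMC3, fell from 16.6, 15.9 and 16.9 CPM in DMSO to 9.02, 10.1 and 10.4 in JQ1 and 7.27, 6.86 and 5.86 in Combination, while CAR libraries (15.4, 15.5 and 16.3) overlapped DMSO. The decrease was 2.47-fold with both (-1.31 ± 0.09, adjusted p = 7.57e-12), Combination lay below JQ1 (-0.56 ± 0.10, adjusted p = 6.27e-05), and the interaction was -0.49 ± 0.12 (adjusted p = 0.00343). HDAC2 was lower with JQ1 (-0.14 ± 0.04, and -0.26 with total-count scaling) and with both (-0.23 ± 0.04, and -0.44).

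The class IIa deacetylases, signal-regulated partners of MEF2 factors with little catalytic activity of their own, moved in both directions. HDAC5 was at 37.2, 36.8 and 37.8 CPM in DMSO, 20.7, 21.4 and 18.8 with CAR, 117, 123 and 124 with JQ1 and 130, 132 and 127 with both agents. CAR lowered it 1.84-fold (-0.88 ± 0.06, adjusted p = 2.57e-11), and JQ1 raised it 3.25-fold (1.70 ± 0.05, adjusted p = 8.19e-19). With JQ1 present, the libraries with CAR were not below those without it (0.10 ± 0.04, adjusted p = 0.0514), and the interaction was 0.98 ± 0.07 (adjusted p = 1.59e-09).

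HDAC9, HDAC7 and HDAC4 fell with JQ1. HDAC9 stood at 34.6, 37.6 and 30.6 CPM in DMSO, 44.0, 43.3 and 45.4 with CAR, 10.0, 11.49 and 8.85 with JQ1 and 14.8, 16.6 and 13.6 with both agents. No group overlapped another: CAR raised it without JQ1 (0.37 ± 0.07, adjusted p = 0.000224) and with it (0.57 ± 0.11, adjusted p = 0.000134), and JQ1 lowered it 3.37-fold (-1.75 ± 0.09, adjusted p = 1.07e-13). HDAC4, like HDAC9, was highest with CAR and lowest with JQ1, at 20.2, 22.6 and 14.4 CPM in DMSO, 31.2, 28.9 and 29.5 with CAR, 10.2, 12.8 and 12.1 with JQ1 and 19.4, 20.9 and 20.4 with both agents. It rose with CAR (0.65 ± 0.11, adjusted p = 0.000159) and from JQ1 to Combination (0.79 ± 0.13, adjusted p = 0.000142), fell with JQ1 (-0.70 ± 0.13), and was not called with both (0.09 ± 0.12). The low value in DMSO is replicate 3, without which the change with CAR was 0.49 (adjusted p = 4.79e-08) and that with JQ1 -0.87. HDAC7 fell from 71.6, 68.3 and 70.5 CPM to 35.9, 37.7 and 38.8 with JQ1 (-0.91 ± 0.05) and 30.3, 29.1 and 31.97 with both (-1.20 ± 0.05, adjusted p = 2.67e-15, 2.30-fold lower).

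All 3 enzymes of classes IIb and IV fell with CAR and rose with JQ1. HDAC6, the tubulin and HSP90 deacetylase, was at 48.3, 45.6 and 44.3 CPM in DMSO, 39.6, 38.9 and 37.3 with CAR, 96.1, 99.1 and 106 with JQ1 and 99.6, 97.6 and 98.0 with both agents. It rose by 1.12 ± 0.05 with JQ1 and 1.09 ± 0.05 with both. HDAC10, a polyamine deacetylase, fell from 27.8, 24.0 and 28.6 CPM to 18.4, 16.4 and 14.5 with CAR (-0.71 ± 0.08, adjusted p = 1.58e-07, 1.63-fold lower), and was 34.7, 35.0 and 37.3 with JQ1 and 41.0, 41.6 and 40.9 with both. Its CAR libraries were the lowest of all 12 and its Combination libraries the highest, with an interaction of 0.91 ± 0.11 (adjusted p = 9.14e-07). HDAC11, which removes long-chain acyl groups, fell with CAR both without JQ1 (-0.63 ± 0.10, adjusted p = 2.88e-05) and with it (-0.73 ± 0.10, adjusted p = 1.93e-06), with an interaction of -0.10 ± 0.14 that was not called. Its levels were 7.70, 7.71 and 9.34 CPM in DMSO, 5.14, 5.75 and 5.10 with CAR, 12.6, 12.5 and 11.4 with JQ1 and 7.27, 7.15 and 7.55 with both agents, below all DMSO libraries but not called against them (-0.17 ± 0.10, adjusted p = 0.117).

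**Figure D4:**
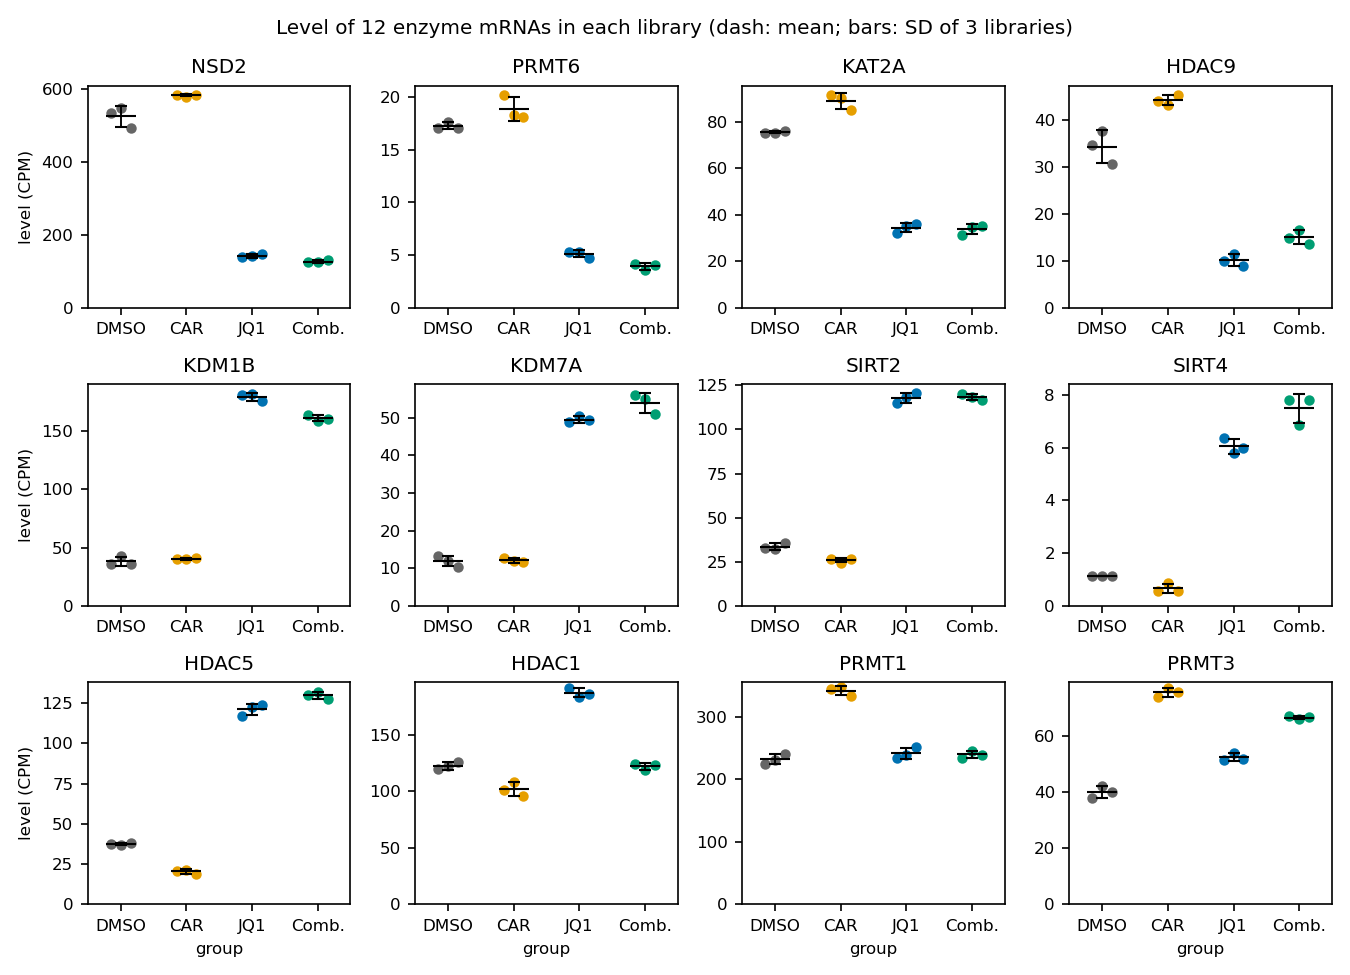
Levels (CPM, linear axis from 0) of 12 enzyme mRNAs in each library (points), with the mean (dash) and SD of 3 libraries per group (bars); Comb. is Combination. HDAC1 is high in the JQ1 libraries alone, PRMT1 in the CAR libraries alone, and HDAC5 is below DMSO with CAR and above it with JQ1 and with both.

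The sirtuins rose nearly as a class: 6 of 7 with JQ1, with a median of 0.92, and all 7 with both agents, with a median of 1.09. With CAR 3 fell and none rose. SIRT2, a mostly cytosolic deacetylase of tubulin and H4K16, stood at 32.9, 32.1 and 35.9 CPM in DMSO, 26.5, 24.5 and 26.7 with CAR, 115, 118 and 121 with JQ1 and 120, 118 and 117 with both agents. The JQ1 and Combination libraries overlapped each other and lay far above the rest, a 3.505-fold rise with JQ1 (1.81 ± 0.05, adjusted p = 6.86e-19). CAR alone lowered SIRT2 (-0.38 ± 0.06), while with JQ1 present CAR gave 0.01 ± 0.04, and the interaction was 0.38 ± 0.07 (adjusted p = 0.000225).

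Of the nuclear sirtuins, SIRT7, bound at ribosomal DNA, was at 42.1, 36.6 and 42.7 CPM in DMSO, 43.2, 40.2 and 38.4 with CAR, 78.3, 81.1 and 86.0 with JQ1 and 127, 120 and 123 with both agents. CAR and DMSO overlapped (0.00 ± 0.06), yet Combination lay 1.51-fold above JQ1 (0.59 ± 0.05, adjusted p = 9.64e-09), and the interaction was 0.59 ± 0.08 (adjusted p = 1.06e-05). SIRT1, the p53 deacetylase, rose from 35.2, 36.4 and 35.4 CPM to 68.9, 65.9 and 67.5 with JQ1 (0.92 ± 0.05) and 76.7, 76.6 and 74.1 with both (1.09 ± 0.05). SIRT6, which acts on H3K9 at telomeres and glycolytic genes, was the member against the class: 12.8, 13.6 and 15.9 CPM in DMSO, 11.52, 12.4 and 12.9 in JQ1, and 16.6, 17.04 and 17.6 in Combination. JQ1 overlapped DMSO, and the call (-0.20 ± 0.08, adjusted p = 0.0313) was lost without DMSO replicate 3 (-0.10), without JQ1 replicate 1 (-0.16), without JQ1 replicate 2 (-0.20) and in DESeq2 (-0.21, adjusted p = 0.058). That call was also lost when the JQ1 and DMSO libraries were fitted by themselves (-0.20, adjusted p = 0.0759). Combination lay above JQ1 (0.48 ± 0.08, adjusted p = 5.95e-05), and above DMSO by 0.28 ± 0.08, which became 0.07 with total-count scaling and was not called.

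Of the mitochondrial sirtuins, SIRT3, the main mitochondrial deacetylase, rose from 24.1, 25.9 and 24.9 CPM to 46.8, 45.8 and 46.8 with JQ1 (0.90 ± 0.06) and fell with CAR (-0.33 ± 0.06). SIRT5, a desuccinylase, rose by 0.86 ± 0.08 with JQ1 and by less with both (0.59 ± 0.08). SIRT4, a lipoamidase, was the lowest member in DMSO on the CPM scale, with 21 to 23 counts per DMSO library. It stood at 1.13, 1.12 and 1.12 CPM in DMSO, 0.544, 0.873 and 0.572 with CAR, 6.35, 5.80 and 5.999 with JQ1 and 7.80, 6.86 and 7.79 with both agents. All 4 groups were separate. SIRT4 had the largest fold change of any member, 5.35-fold with JQ1 (2.42 ± 0.16, adjusted p = 2.80e-12) and 6.61-fold with both (2.73 ± 0.15, adjusted p = 1.86e-13). Its decrease with CAR (-0.76 ± 0.24, adjusted p = 0.0152) was lost without CAR replicate 1 (-0.63, adjusted p = 0.0794) or CAR replicate 3 (-0.67, adjusted p = 0.0625). The interaction was 1.06 ± 0.27 (adjusted p = 0.00341).

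**Figure D5:**
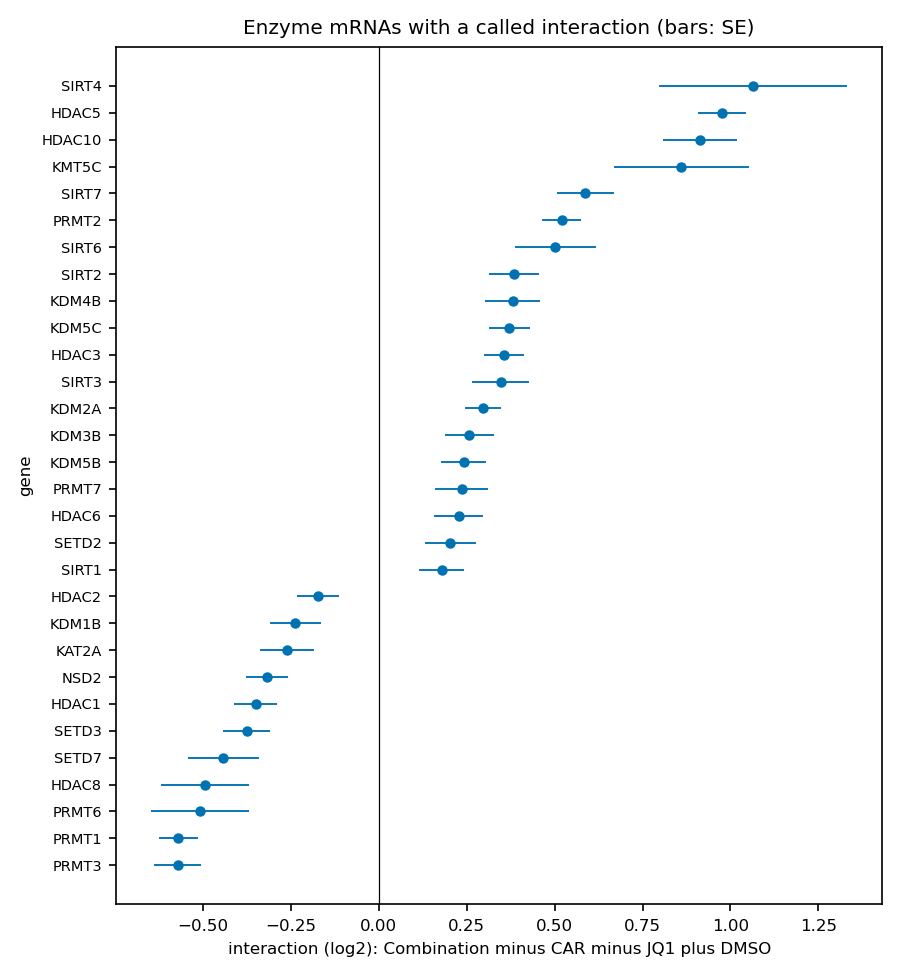
Interaction on the log2 scale (Combination minus CAR minus JQ1 plus DMSO; points with bars of 1 SE) for the 30 enzymes in which it was called. SIRT4 (1.06) and HDAC5 (0.98) lie at the upper end and PRMT1 and PRMT3 (both -0.57) at the lower end.

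The direction of each interaction is seen in the groups behind it. The 4 largest were in SIRT4, HDAC5, HDAC10 and KMT5C, and in each CAR lowered the mRNA without JQ1. With JQ1 present the difference with CAR was not called in HDAC5 and KMT5C (0.10 ± 0.04 and -0.08 ± 0.12), and the Combination libraries of SIRT4 and HDAC10 lay above their JQ1 libraries. The SIRT4 call (0.31 ± 0.11) was lost in DESeq2 (adjusted p = 0.116), with total-count scaling (0.22), and without Combination replicate 1 or 3 or JQ1 replicate 2 or 3. The HDAC10 call (0.21 ± 0.07) was lost with total-count scaling (0.12) and without JQ1 replicate 1 or 2. In PRMT1 and PRMT3 CAR raised the mRNA more without JQ1 than with it, the step from JQ1 to Combination being -0.01 ± 0.04 for PRMT1 and 0.35 ± 0.05 for PRMT3. In PRMT6 and HDAC8 CAR alone did not pass the test (0.13 ± 0.07 and -0.07 ± 0.08), and Combination was below JQ1. Of the 7 sirtuins 6 had a positive interaction that was called, SIRT1 among them by a small margin. The SIRT1 call was lost in DESeq2, without the filter, with total-count scaling and without any 1 of 6 libraries (CAR replicates 1 and 2, Combination replicates 1 and 2, DMSO replicate 2, JQ1 replicate 2), with values of 0.16 to 0.18. Without DMSO replicate 3, 13 more enzymes were called, among them KMT2C (0.32, adjusted p = 1.33e-07) and HDAC4 (0.31, adjusted p = 0.0153), and the 30 were kept.

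Enzymes and partners outside the symbol rule were counted from lists of other writers and erasers, complex subunits and co-substrate enzymes. The shares of all genes to read these counts against are those above, 27.3% higher and 30.1% lower with CAR, 41.5% and 42.2% with JQ1, and 42.6% and 42.8% with both. Of 27 other histone methyltransferases, demethylases and acetyltransferases tested, 9 rose and 6 fell with CAR, 9 rose and 17 fell with JQ1, with a median of -0.28, and 8 rose and 16 fell with both. With JQ1 these are 33.3% and 63%. SUV39H1, which writes H3K9 trimethylation at heterochromatin, fell by 2.68 with JQ1 (-2.68), and PHF2, a JmjC demethylase, by 2.77 (-2.77), while SMYD5 changed by -1.18 with JQ1 and 0.55 with CAR. RIOX2, a JmjC oxygenase of the nucleolus, rose by 0.62 with CAR. Among 14 subunits of the KMT2 and SETD1 complexes 4 rose and 3 fell with CAR, 5 rose and 8 fell with JQ1, and 5 rose and 7 fell with both. RBBP5, a core subunit, rose with JQ1 (0.91), BOD1 fell (-1.10), and PSIP1, which tethers KMT2A to chromatin, fell with CAR (-0.39).

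Of 41 acetyltransferase complex subunits 12 rose and 6 fell with CAR, 13 rose and 22 fell with JQ1, and 15 rose and 18 fell with both. The shares were 31.7% and 53.7% with JQ1, and 36.6% and 43.9% with both, the latter near those of all genes. JADE2 and JADE1, scaffolds of the KAT7 complexes, fell by 2.34 and 1.44 with JQ1 (-2.34 and -1.44), and ZZZ3 of ATAC rose with CAR (0.29). Of 33 deacetylase complex subunits 7 rose and 11 fell with CAR, 13 rose and 14 fell with JQ1, and 13 rose and 13 fell with both. The shares with JQ1, 39.4% and 42.4%, were near those of all genes. The NuRD subunits CHD3 (-1.08) and RBBP7 (-0.91) fell with JQ1, HMG20B of the CoREST group rose (0.98), and MIDEAS of the MiDAC complex fell with CAR (-0.53). Among 20 enzymes that supply or consume co-substrates 8 rose and 6 fell with CAR, 8 rose and 8 fell with JQ1, and 9 rose and 9 fell with both. The shares with JQ1, 40% and 40%, were again near those of all genes. NNMT, which uses up S-adenosylmethionine and nicotinamide, fell with JQ1 (-4.53), and so did MTHFD1 of the folate cycle (-1.53), while NADSYN1 of NAD synthesis rose (1.06). With CAR the acetyl-CoA synthetase ACSS2 (-0.63) and IDH1, which makes α-ketoglutarate (-0.57), fell, and NAMPT, the rate-limiting enzyme of NAD salvage, rose (0.52).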

How the data were processed

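The authors deposited 1 table of whole-number read counts per gene symbol for each of the 12 libraries, not normalized. As tools, HISAT2, HTSeq and Trimmomatic are listed, with hg38 as build and no versions, per the submitters' processing notes. Sources used here do not give the annotation or the strand setting of the counting. A stranded poly(A) kit was used, per the labels' protocols. Of the 71 enzymes, 26 have exons that overlap exons on the other strand, 5 of them over at least 10% of their exon bases (GENCODE v29, GRCh38, by symbol), and without strand those reads cannot be told apart. The floor of 3 counts covers counting error only, while each SE also includes the spread between libraries.

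The analysis of these counts used edgeR 4.0.16 (R 4.3.3, limma 3.58.1): filterByExpr by group (minimum count 10, minimum total 15), TMM factors (0.920 to 1.08), and a robust quasi-likelihood fit to all 12 libraries with 1 coefficient per group (8 residual degrees of freedom, common biological coefficient of variation 0.0408). The 6 contrasts were tested over all genes, and only the enzymes are printed. Full statistics go to the 6 largest and 6 smallest called changes of each contrast (higher group mean 5 CPM or more), and to the 4 largest and 4 smallest interactions; further members are named to describe their class after their values were seen, and the other genes are up to 3 with the smallest adjusted p of each list in a contrast. Promoter sequences come from RefSeq. Members, lists and motifs were chosen with earlier results of these data known.

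Alternatives were other scalings, no filter on low counts, DESeq2 1.42.0, a fit to the groups compared alone, the replicate number as a block, and leaving out each replicate. Scripts were tested on simulated data. No replicate pair agreed within sampling noise.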

Additional observations from a re-analysis of the deposited data

Results flagged for a closer look

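In 8 enzymes with full statistics, the change with JQ1 differed with and without CAR by a test of that difference, the interaction in edgeR's quasi-likelihood fit. The effect of JQ1 was higher with CAR present in SIRT4, by 1.06 on the log2 scale (adjusted p = 0.00341), HDAC5, by 0.98 (adjusted p = 1.59e-09), HDAC10, by 0.91 (adjusted p = 9.14e-07), and KMT5C, by 0.86 (adjusted p = 0.00127). It was lower with CAR present in PRMT3, with an interaction of -0.57 (adjusted p = 1.20e-06), PRMT1, with -0.57 (adjusted p = 8.44e-08), PRMT6, with -0.51 (adjusted p = 0.00633), and HDAC8, with -0.49 (adjusted p = 0.00343). SIRT4 and KMT5C were low, SIRT4 with 11 to 23 counts per DMSO or CAR library. Groups of 3 were not tested for single outlying libraries.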

How the results depend on the processing

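Of 924 alternative values for the 68 pairs of enzyme and contrast with full statistics, 923 kept direction and call, and 1 call was lost (PRMT6, Combination against JQ1, without Combination replicate 2). These pairs were picked as the largest called changes of each contrast in the same data, so that few losses follow from the choice. The counts over all called enzymes are the ones to read. In all, 25 of 33 calls were kept in every setting for CAR, 53 of 58 for JQ1, 50 of 58 for Combination against DMSO, 27 of 35 against JQ1, 56 of 62 against CAR, and 25 of 30 for the interaction. Enzymes lower with CAR ran from 13 to 25 when replicates were left out (25 without DMSO replicate 3, against 16), and positive interactions from 17 to 29 (29 without DMSO replicate 3, against 19). With total-count scaling 29 enzymes were lower with both agents than with DMSO (against 19), and 22 were lower than with JQ1 (against 14). That scaling turned KDM2A to -0.00317 against DMSO and -0.00977 against CAR in Combination, and SETD3 to -0.00851 against CAR. It lowered the share of higher calls over all genes from 47.6% to 35.7% with CAR, from 49.9% to 39.3% with both, and from 50.1% to 32.9% between Combination and JQ1.

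No pairing by replicate number was seen: of 18 same-numbered pairs of libraries, deviations correlated between -0.18 and 0.18, and 2 exceeded 0.1. In the 36 differently numbered pairs they correlated between -0.18 and 0.16, and 4 exceeded 0.1. The labels do not say what the numbers mark, and deviations within groups of 3 libraries cannot exclude pairing. With the replicate block the counts higher and lower were 17 and 16 for CAR, 37 and 21 for JQ1, 39 and 19 for Combination against DMSO, 20 and 14 against JQ1, 40 and 22 against CAR, and 19 and 11 for the interaction. The block lost the call of KDM2B between Combination and JQ1 (adjusted p = 0.0569). Over all libraries KDM4D, SIRT4 and KDM8 had the fewest counts, and depth limits them most.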
